A study of Homo sapiens with 2 samples.

Results

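AATF and 4 of its known partners, NGDN, NOL10, PAWR and DAPK3, were examined for NRF-1 occupancy in U251, a glioblastoma cell line of human origin. The 5 genes were listed by name for their binding to AATF, out of 19794 protein-coding genes of the annotation. Both groups were transfected, one with a non-targeting control (siControl) and the other with siRNA that targets AATF mRNA (siAATF), and chromatin was precipitated with an NRF-1 antibody and tagged by a transposase (ChIPmentation). Each condition was represented by 1 peak list, with 18014 peaks in siControl and 18454 in siAATF, and no replicate list was used here. A value that differs between the lists is therefore a difference between single lists, and it has no test and no replicate error. The study's methods name duplicates, and whether a list pools them was not stated. The time between transfection and fixation was not given in the sources used here. The sample labels name U251, whereas the design text of the series names U138. Peak lists do not measure the AATF transcript or protein, so the depletion itself was not assessed here. The study shows a western blot of the U251 cells used for this experiment. It also reports less NRF-1 protein after AATF depletion in some glioblastoma lines, and a shift of NRF-1 from nucleus to cytoplasm in U251.

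AATF, also known as Che-1, is a nucleolar protein and a transcriptional cofactor that binds the retinoblastoma protein and RNA polymerase II and counteracts apoptosis. In the nucleolus it forms a complex with NGDN (neuroguidin) and NOL10, which takes part in early processing of the RNA of the small ribosomal subunit. PAWR (Par-4) is a leucine zipper protein that promotes apoptosis, and DAPK3 (ZIP kinase) is a serine/threonine kinase of the death-associated family that binds PAWR. NRF-1 binds GC-rich palindromes in the promoters of many housekeeping genes as a dimer. Whether NRF-1 occupies the genes of AATF and of the proteins that work with it, with and without AATF depletion, is the question these lists can address.

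The promoters fell into 3 kinds. AATF and DAPK3 had promoter peaks in both lists that were strong by −log10 q, the significance of a peak. PAWR had a weak peak in both lists. The nucleolar partners had either a marginal peak in siAATF alone (NGDN) or none (NOL10). A promoter peak was one that overlapped the region 1 kb on either side of any protein-coding transcript start by at least 1 base. By that definition siControl held promoter peaks of 3 of the 5 genes and siAATF of 4, beside 61.1% and 60.7% of all coding genes. With −log10 q of at least 5, a stricter threshold, 2 of 5 remained in each list (AATF and DAPK3), beside 51.5% of coding genes in siControl and 51.5% in siAATF. With 5 genes, these counts cannot be told from the shares over coding genes, and the genes differed among themselves mainly in the strength of the peaks.

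The DNA just upstream of the 5 genes is shown because near-matches to the NRF-1 palindrome separate the promoters strong by −log10 q from the others. The palindrome searched, called the core here, was GCGCATGCGC, which reads the same on both strands. It is a fixed word, and any variant of it that NRF-1 may also bind was counted as a mismatch. The sequences are the 150 bases that end just before the canonical transcription start, in the direction of transcription, on hg19. They lie at chr17:35306104-35306253 (plus strand) for AATF, chr14:23938762-23938911 (plus) for NGDN, chr2:10830102-10830251 (minus) for NOL10, chr12:80084745-80084894 (minus) for PAWR and chr19:3971098-3971247 (minus) for DAPK3. Capitals mark a match to the core with 1 mismatch.
AATF: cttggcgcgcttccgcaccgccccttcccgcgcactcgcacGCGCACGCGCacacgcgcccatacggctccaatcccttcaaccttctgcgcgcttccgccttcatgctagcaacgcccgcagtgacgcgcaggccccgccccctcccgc
NGDN: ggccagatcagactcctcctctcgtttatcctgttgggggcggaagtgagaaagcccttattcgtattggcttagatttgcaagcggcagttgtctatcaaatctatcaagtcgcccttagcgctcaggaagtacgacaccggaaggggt
NOL10: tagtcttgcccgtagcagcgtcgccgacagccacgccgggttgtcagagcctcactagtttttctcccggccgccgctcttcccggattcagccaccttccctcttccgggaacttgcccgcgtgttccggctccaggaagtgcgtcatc
PAWR: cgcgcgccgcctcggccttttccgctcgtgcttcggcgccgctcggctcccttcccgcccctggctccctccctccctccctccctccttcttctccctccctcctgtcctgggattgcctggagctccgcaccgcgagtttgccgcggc
DAPK3: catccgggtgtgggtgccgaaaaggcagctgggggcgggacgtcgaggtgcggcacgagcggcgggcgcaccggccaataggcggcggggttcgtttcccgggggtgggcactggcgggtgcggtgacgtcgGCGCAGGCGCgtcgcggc

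Neither an exact core nor the exact control palindrome GCGCTAGCGC, which has the same base composition, was found within 1 kb of the canonical start of any of the 5 genes, and the control palindrome was also absent with 1 mismatch allowed. With 1 mismatch allowed, the core occurred once at AATF and once at DAPK3. The AATF match, GCGCACGCGC, lay 109 to 100 bases upstream of the start and differed from the core by T6C, counted from the first base of the core in the direction of transcription. The DAPK3 match, GCGCAGGCGC, lay 18 to 9 bases upstream and differed by T6G. Both matches were inside the promoter peaks of both lists, 97 bp from the peak midpoint at AATF and 42 bp at DAPK3 in siControl, and 95 bp and 24 bp in siAATF. Of 19510 coding promoters of the same length, 2.44% held an exact core and 16.0% a core with up to 1 mismatch, against 0.154% and 7.29% for the control palindrome. Among promoters with a siControl peak the share with a core of up to 1 mismatch was 23.2%, and among those without one it was 4.55%. For the control palindrome with up to 1 mismatch these shares were 9.74% and 3.31%. A word of the same base composition was thus also more frequent at occupied promoters, though by a smaller ratio.

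The arm of the core, GCGCA on either strand, is a shorter word that is also part of the core matches. It occurred 12 times in the AATF promoter, a number reached by 2.27% of coding promoters, 5 times in that of PAWR and 3 times in that of DAPK3, beside a median of 3. It was absent from the promoters of NGDN and NOL10, as it was from 17.9% of coding promoters. Of the 3492 promoters without this word, 18.6% were occupied in siControl and 19.0% in siAATF. The members of the nucleolar complex thus differed among themselves in this sequence feature, with AATF at one end and its partners at the other. A match is a description of the letters in a window and was not assessed as a binding site.

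AATF spans 108 kb on chromosome 17 (35306225 to 35414171, plus strand), and 6 of its 7 coding starts lie within 1 kb of each other at the 5′ end. Its promoter peak was at 35305667 to 35306826 in siControl and at 35305668 to 35306821 in siAATF, widths of 1160 and 1154 bp. The edges were nearly the same in both lists. In siControl the peak ran from position −587 to position 572 relative to the canonical start, so that it covered all of exon 1, with 172 untranslated and 91 coding bases, and entered the first intron. Fold enrichment over the local background of the library was 7.45 in siControl and 7.04 in siAATF, and the −log10 q values were 73.5 and 64.3. Since each list has its own background and depth, these values were compared only as percentile ranks in their own list, from 0 for the weakest peak to 100 for the strongest. By fold enrichment the AATF peak ranked 72.6 in siControl and 72.4 in siAATF, a change of −0.197 points. By −log10 q it ranked 94.2 and 93.5, a change of −0.702 points. The AATF promoter peak thus stood higher by significance than by enrichment. By fold enrichment the median coding gene with a promoter peak ranked 63.4 in siControl and 64.4 in siAATF, not far below AATF. Of the 11774 coding genes with promoter peaks in both lists, 2.73% had a smaller absolute change by fold enrichment and 16.4% by −log10 q.

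A further AATF peak was found only in siAATF. It lay at 35413955 to 35414154, 107701 to 107900 bases downstream of the canonical start in the last of 12 exons, with 7 coding bases and 193 bases of the untranslated region that follows. The peak was 200 bp wide, which is the smallest width in either list, had a −log10 q of 1.58 and ranked 7.59 by fold enrichment and 2.69 by −log10 q. It was the only gene-body peak in the 5 genes, with 0 of 5 genes in siControl and 1 of 5 in siAATF, beside 13.1% and 14.1% of coding genes. Peaks of 200 bp numbered 669 in siControl and 611 in siAATF. Such peaks were also seen in siControl alone near these genes. One lay at −28.0 kb from the AATF start, with a −log10 q of 2.33 and a rank of 13.5 by fold enrichment. Another lay at −15.8 kb from the DAPK3 start, with a −log10 q of 3.49.

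NGDN, a partner of AATF in the nucleolar complex, lies on chromosome 14 (23938888 to 23979071, plus strand). No NGDN peak was called in siControl, in which the nearest peak lay 81.2 kb from the canonical start. In siAATF a promoter peak was called at 23938734 to 23938933, from position −178 to position 21, with 13 untranslated and 9 coding bases of exon 1. Its fold enrichment was 3.72 and its −log10 q 1.92, where the lowest −log10 q in that list was 1.02. It ranked 12.3 by fold enrichment and 6.25 by −log10 q and had the smallest width, 200 bp. A promoter peak in siAATF alone was present for 1.17% of coding genes, and one in siControl alone for 1.62%. The 232 genes of the siAATF-only class had a median rank of 14.7 by fold enrichment and a median −log10 q of 2.29, and the NGDN peak lay slightly below both medians.

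NOL10, the other nucleolar partner, lies on chromosome 2 (10702473 to 10830113, minus strand) and has 4 coding starts close together. It had no promoter peak and no gene-body peak in either list, as was the case at the promoter for 37.7% of coding genes. The nearest peak was 31.6 kb from the canonical start in siControl and 31.5 kb in siAATF. Its promoter was not poor in CpG. The ratio of observed to expected CpG was 0.702 within 1 kb of the canonical start, above the median of 0.639 over coding promoters. Of the 1949 coding promoters nearest to it in that ratio, within 5 percentile points, 85.9% were occupied in siControl and 84.9% in siAATF. For NGDN, with a ratio of 0.680, the corresponding shares were 82.3% and 82%. For AATF, PAWR and DAPK3, which were occupied, they ran from 86.3% to 91.2% in siControl.

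PAWR, the pro-apoptotic partner, spans 116 kb on chromosome 12 (79968759 to 80084744, minus strand). Its promoter peak was at 80083605 to 80085250 in siControl and at 80083540 to 80084759 in siAATF. The peak was broad, 1646 bp in siControl, which placed it at percentile 98.96 of all widths, and 1220 bp in siAATF. It began at position −506 relative to the canonical start in siControl but at −15 in siAATF, and it ended 1139 and 1204 bases downstream. Both peaks covered exon 1 and part of exon 2 of the canonical transcript, 4 coding starts of PAWR, and lay within 1 kb of the start of the long non-coding RNA PPP1R12A-AS2. The overlap of 1155 bp made up 70.2% of the PAWR peak of siControl and 94.7% of that of siAATF. Fold enrichment was 3.93 in siControl and 4.59 in siAATF, and −log10 q came to 2.87 and 4.80, below 5 in both. PAWR had the highest CpG ratio of the 5 genes, 0.874, with neither a core match nor a strong peak.

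By fold enrichment the PAWR peak ranked 15.9 in siControl and 31.7 in siAATF, 15.8 points higher in siAATF. By −log10 q it ranked 16.2 and 31.9, 15.7 points higher. Over the 11774 coding genes with promoter peaks in both lists, the change between the 5th and 95th percentile ran from −16.4 to 17.6 points by fold enrichment and from −10.8 to 12.4 points by −log10 q. The change of PAWR was therefore inside that range by the first measure and outside it by the second. A smaller absolute change was seen for 88.1% of these genes by fold enrichment and for 94.8% by −log10 q. Both comparisons are with promoter peaks of all strengths, and neither was made among weak peaks alone. Whether the change of PAWR is unusual for a weak peak was therefore not assessed.

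DAPK3, the kinase, is the shortest of the 5 genes, 12.7 kb on chromosome 19 (3958451 to 3971121, minus strand). Its promoter peak was at 3970664 to 3971473 in siControl and at 3970709 to 3971464 in siAATF, 810 and 756 bp wide. The siAATF peak lay wholly inside the siControl peak and covered 93.3% of it. In siControl the peak ran from position −376 to position 433 and covered the whole of exon 1, which has 179 untranslated and 0 coding bases. Fold enrichment was 9.40 in siControl and 9.72 in siAATF, and −log10 q reached 63.8 and 65.3. The peak ranked 94.6 in siControl and 98.7 in siAATF by fold enrichment, 4.12 points higher in siAATF. By −log10 q it ranked 90.4 and 94.0, 3.54 points higher. Among the 11774 genes with promoter peaks in both lists, the absolute change was smaller for 42.8% by fold enrichment and for 58.1% by −log10 q.

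**Figure D1:**
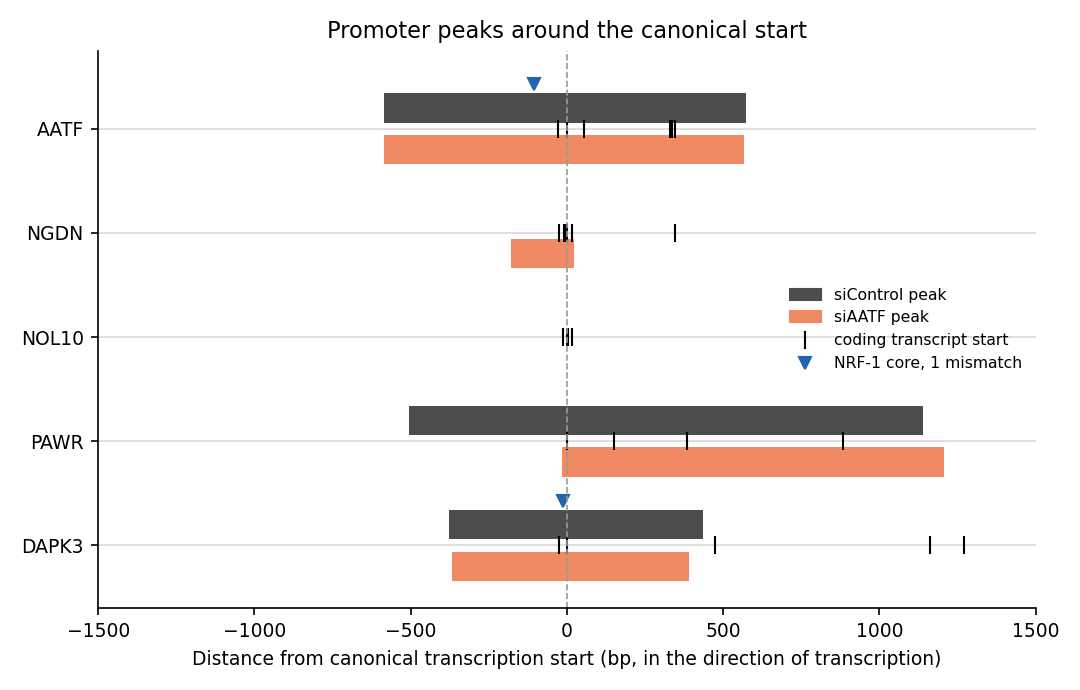
Promoter peaks of the 5 genes by distance in bp from the canonical start, with siControl peaks as grey bars, siAATF peaks as orange bars, coding starts as ticks and core matches with 1 mismatch as triangles. AATF and DAPK3 peaks nearly coincide between lists, the PAWR peak starts at −506 in siControl and at −15 in siAATF, NGDN has a bar of 200 bp in siAATF alone and NOL10 has none.

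The 3 promoters occupied in both lists kept the same order by fold enrichment, with DAPK3 above AATF and AATF above PAWR. By −log10 q, AATF ranked above DAPK3 in siControl (94.2 against 90.4) and just below it in siAATF (93.5 against 94.0). Whether AATF and DAPK3 differ by −log10 q could not be judged without replicates, whereas PAWR was lower than both on either scale in each list. All 3 siControl promoter peaks overlapped a siAATF peak, and 3 of the 4 siAATF ones overlapped a siControl peak, the exception being NGDN. Over coding genes, the strongest promoter peak overlapped a peak of the other list in 97.1% of cases for siControl and in 97.8% for siAATF. No gene of the 3 changed rank by over 20 points, while 3.65% of the 11774 genes were higher in siAATF by over 20 points and 2.9% were lower.

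**Figure D2:**
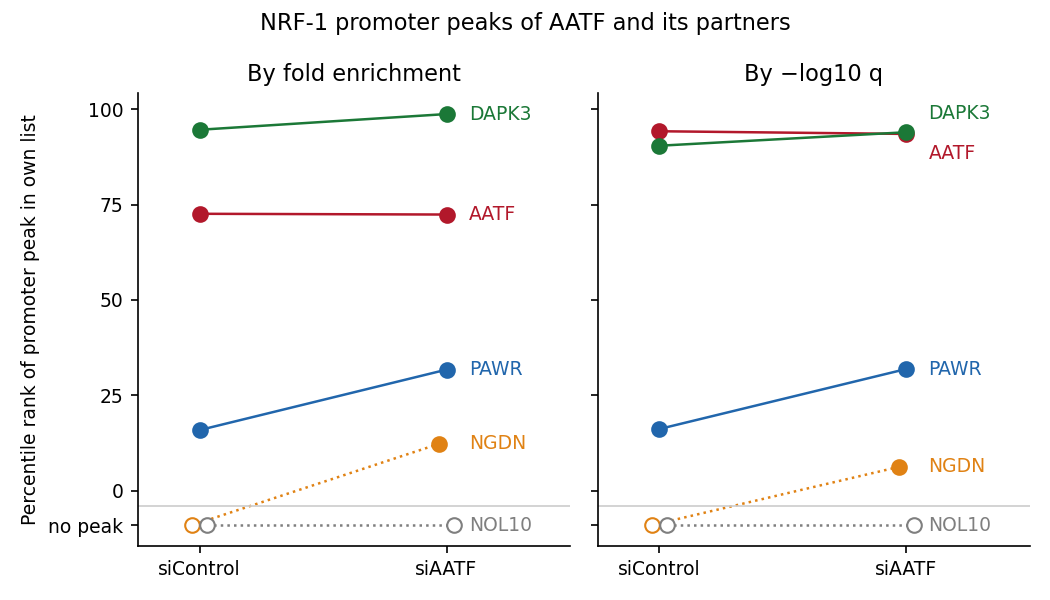
Percentile rank of the promoter peak in its own list (y axis, 0 to 100), by fold enrichment on the left and by −log10 q on the right, with 1 point per gene and list and open points for no peak. DAPK3 and AATF lie above the other genes in both lists, PAWR goes from 15.9 to 31.7 by fold enrichment, NGDN appears in siAATF at 12.3 and NOL10 has no peak.

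**Figure D3:**
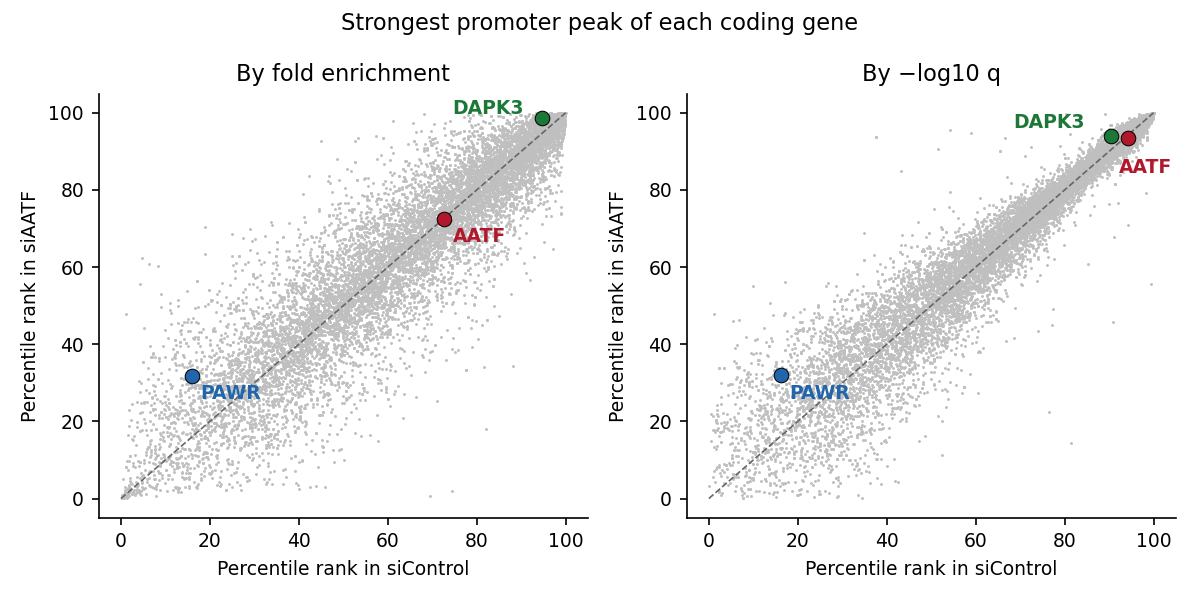
Percentile rank of the strongest promoter peak of 11774 coding genes (grey points) in siControl (x axis) and siAATF (y axis), by fold enrichment on the left and by −log10 q on the right, with the dashed line at equal rank. AATF lies on the line, DAPK3 just above it and PAWR above it among the weak peaks.

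The relation of core matches to peak strength was also described across coding promoters. Of the 1640 siControl promoter peaks ranked 90 to 100 by −log10 q, the range that holds AATF and DAPK3, 84.4% held the core with up to 1 mismatch. Of the 2528 ranked 0 to 35, the range that holds PAWR, 1.31% did. In siAATF, in which NGDN also falls in the lower range, the shares were 84.0% of 1684 peaks and 1.13% of 2385. The ranges were chosen after the ranks of the 5 genes had been seen. Peaks of the ranges were not matched for width or base composition, and the control palindrome was not counted in them.

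**Figure D4:**
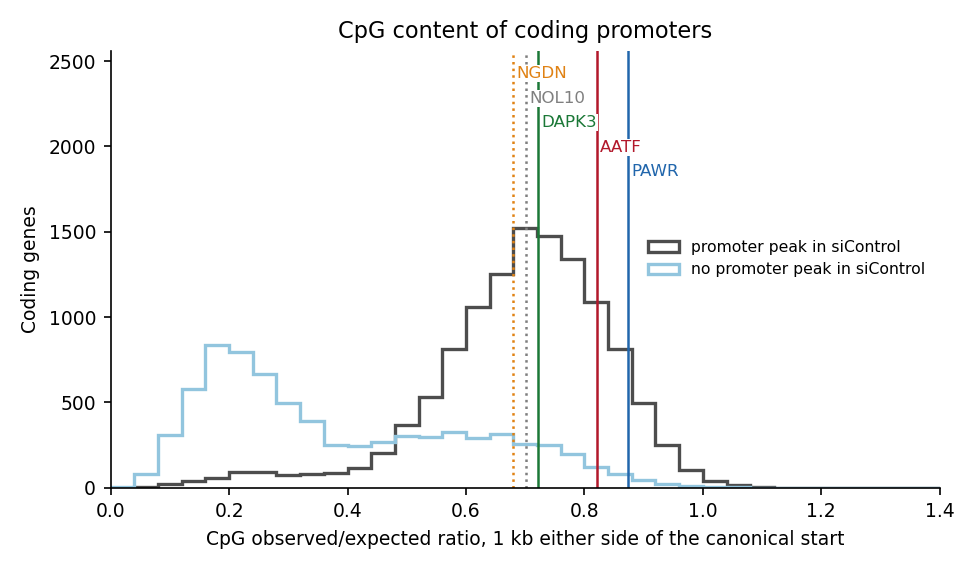
Number of coding genes (y axis) by CpG observed/expected ratio within 1 kb of the canonical start (x axis), for genes with and without a siControl promoter peak, with vertical lines at the 5 genes, dotted for those without a siControl peak. All 5 lines, from 0.680 at NGDN to 0.874 at PAWR, lie in the range in which most genes have a peak.

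The coding genes with the most similar promoter peaks were found by the Euclidean distance over 4 percentile ranks, those by fold enrichment and by −log10 q in each of the 2 lists. Nearest to AATF were DAP, at 1.36 points, and KHDRBS3, at 1.74 points. Nearest to PAWR were ZNF213 (2.04 points) and PDE4C (2.33 points), and nearest to DAPK3 were C4orf3 (0.816 points) and GMPR (1.26 points). With only 2 lists, such likeness is in level and says nothing further of the genes.

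The genes around AATF were described by 3 lists, which were chosen with earlier results of these data known. Their counts and medians are therefore a description and not an independent test. The small subunit (SSU) processome is the nucleolar particle in which the complex of AATF, NGDN and NOL10 acts, and 40 of its other components were listed. A promoter peak was present for 34 of 40 genes in siControl and for 36 of 40 in siAATF, beside 61.1% and 60.7% of coding genes. By −log10 q their median rank came to 68.1 in siControl and 64.1 in siAATF, beside 65.0 and 66.1 over coding genes with a peak. WDR46, BMS1, NOP58 and FCF1 had no promoter peak in either list, as was seen for NOL10, 4 of 40 genes beside 37.7% of coding genes. UTP25 and HEATR1 had one in siAATF alone, as was seen for NGDN, with a −log10 q of 1.85 and 1.67, and 0 genes of the list had one in siControl alone. These 2 and 0 of 40 stand beside 1.17% and 1.62% of coding genes.

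By fold enrichment in siControl, the highest SSU processome promoters were those of UTP4, a component of the particle that binds the pre-ribosomal RNA early (rank 97.8), and KRR1 (97.8), and the lowest were RRP36 (25.05) and the WD-repeat component TBL3 (26.7). Of the 34 genes with a peak in both lists, 17 ranked higher and 17 lower in siAATF, with a median change of 0.240 points. A change of over 20 points was seen for RRP36 (25.05 to 62.7), WDR36 (37.8 to 71.3) and UTP11 (82.0 to 61.3), 3 of 34 genes beside the 3.65% higher and 2.9% lower over coding genes. By −log10 q the changes of these genes were 25.7, 19.8 and −5.11 points. The core with up to 1 mismatch was in 10 of 40 promoters (25%), beside 16.0% of coding promoters. These 10 had a peak in both lists, and over coding genes 2792 of the 3131 promoters with such a core had one in siControl. Their median rank by −log10 q was 92.9 in siControl, against 54.1 for the 24 genes with a peak but no such core, beside 90.9 and 56.6 over coding genes. In siAATF the medians were 91.99 and 52.1. The rank of AATF, which has a core match, was 94.2 and 93.5.

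A second list held 11 nuclear proteins known to bind, modify or act with AATF, such as RB1, the DNA damage kinase ATM, and POLR2J, a subunit of RNA polymerase II. Each of these 11 had a promoter peak in both lists, as did 11774 of the 19794 coding genes. By −log10 q their median rank came to 82.8 in siControl and 81.4 in siAATF, beside 65.0 and 66.1 over coding genes with a peak. The highest by fold enrichment in siControl were MDM2, a ubiquitin ligase (98.9), and HDAC1, a histone deacetylase (97.8), and the lowest were the stress kinase MAPKAPK2 (46.5) and the DNA damage kinase CHEK2 (46.9). Of the 11 genes, 5 ranked higher and 6 lower in siAATF. SP1, a GC-box transcription factor, ranked 74.6 in siControl and 41.7 in siAATF, a change of −32.9 points by fold enrichment. By −log10 q it ranked 63.8 and 47.7, a change of −16.2 points. The SP1 change was the only one over 20 points by fold enrichment among the 11. Over coding genes with peaks in both lists, 3.65% ranked higher and 2.9% lower by over 20 points. The core with up to 1 mismatch was in 4 of these 11 promoters, beside 23.2% of the coding promoters with a siControl peak.

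The third list held 4 kinases related to DAPK3. The promoters of DAPK1, DAPK2, STK17A and STK17B were occupied in both lists, as were those of 11774 of the 19794 coding genes. None of these 4 held the core with up to 1 mismatch, which DAPK3 had. Among coding promoters with a siControl peak 23.2% held it, and 0 of 4 cannot be told from that share. In siControl STK17B ranked highest by fold enrichment (96.4), followed by STK17A (63.6), DAPK1 (45.3) and DAPK2 (34.2). By −log10 q their ranks in siControl ran from 30.1 to 77.1, below the 90.4 of DAPK3. In siAATF DAPK1 ranked 13.7 by fold enrichment, a change of −31.6 points (−27.6 by −log10 q), while the other 3 ranked 3.45 to 18.7 points higher. The −log10 q of the DAPK1 peak was 6.21 in siControl and 2.26 in siAATF, below 5 in the latter. Its change was the 1 over 20 points among the 4, beside 3.65% higher and 2.9% lower over coding genes with peaks in both lists.

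**Figure D5:**
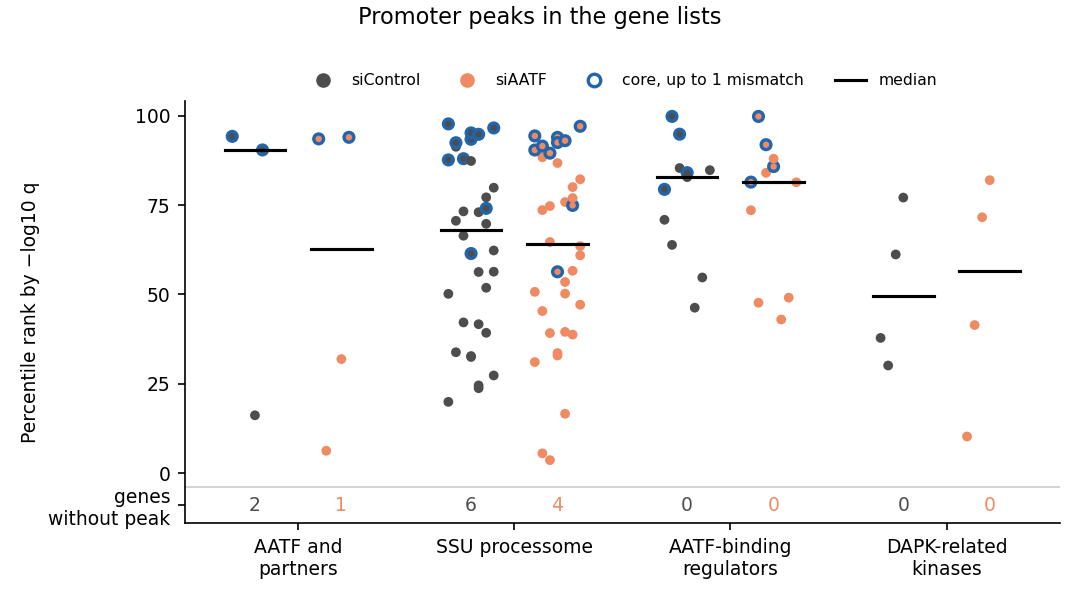
Percentile rank by −log10 q (y axis) of the strongest promoter peak of each gene in the 4 groups, in siControl (grey) and siAATF (orange), with blue rims for promoters with the core at up to 1 mismatch, lines for medians and the number of genes without a peak below. Rimmed points lie at 56.3 or above in each group and list, and the SSU processome has 6 genes without a peak in siControl and 4 in siAATF.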

How the data were processed

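NRF-1 occupancy was profiled by ChIPmentation in U251 cells treated with siControl or siAATF. Per the labels and the study's methods, the authors used Bowtie2 for alignment to hg19 and called broad peaks with MACS2 in an ATAC-seq pipeline with default settings. No input or IgG was named, and it was not stated whether the duplicates were pooled. The files deposited by the authors gave, for each peak, start and end, fold enrichment over the local background (a ratio), −log10 p and −log10 q, and a display score derived from −log10 q, which was not used further. Read depth is unknown, so no interval was given for a peak.

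Peaks were joined to GENCODE release 44 lifted to GRCh37, the build of the lists, and 0 peaks ran past a chromosome end. Promoters covered 1 kb on either side of protein-coding transcript starts. A gene-body peak overlapped the gene but none of its promoters. Where a gene had several promoter peaks, the strongest by fold enrichment was taken. Percentile ranks were computed over all peaks of a list. Composition and words were read within 1 kb of the canonical start, for 19510 genes. Python 3.11.15, numpy 2.4.6, scipy 1.17.1, pandas 2.3.3 and pysam 0.24.0 were used, and the functions were tested on simulated peaks and sequence.

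Peaks outside chromosomes 1 to 22, X and Y numbered 132 in siControl and 122 in siAATF and were kept for ranks only. The 5 genes and the 3 lists were chosen with earlier results of these data known. All genes of the lists matched the annotation. One further gene of the second list is not reported here. Genes named from a list were those with no promoter peak in either or in 1 condition, the 2 highest and the 2 lowest in siControl, and those with a rank change over 20 points. Other genes are named as examples of a list or to describe all 4 of one. The count of the core arm and the rank ranges of the core comparison were chosen after the values had been seen. For each gene with peaks in both lists the 2 most similar coding genes were named. Alternatives were promoters of 500 bp and 2 kb, −log10 q of at least 5, reciprocal overlap of at least 50%, ranking by −log10 q, ranking among promoter peaks, among peaks shared 1 to 1 or on chromosomes 1 to 22 and X, and the core with 1 mismatch, in the siAATF peak or within 100 bp of the midpoint.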

Additional observations from a re-analysis of the deposited data

How the results depend on the processing

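No paired analysis was possible because each condition had only 1 list. Of 41 alternative values for counts, 37 stayed within 1.5 times, and of 39 for ranks and rank changes of single genes, 17 stayed within a 95% binomial interval of the rank, a nominal one over peaks, and 22 moved. None turned the sign of a rank change. With −log10 q of at least 5, which removes weak peaks, the genes with a promoter peak in siAATF numbered 2 in place of 4 (NGDN and PAWR were lost) and those with a gene-body peak 0 in place of 1. The core was in the siControl promoter peak of 0 genes as an exact match and of 2 with up to 1 mismatch, also within 100 bp of the midpoint, since that setting admits more words. Rank by −log10 q placed AATF at 94.2 in place of 72.6 in siControl, and ranking among promoter peaks alone reduced the change of PAWR from 15.8 to 10.6 points. The cause was not tested. The NGDN peak has no counterpart and so no rank among peaks shared 1 to 1. Unknown depth limits what the presence of a marginal peak in 1 list can show.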

Other observations

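Peaks of other genes lay within 50 kb of AATF, NOL10 and DAPK3, and NGDN and PAWR had none. The promoter of LHX1, a homeobox gene whose peak midpoint lay at −12.6 kb from the AATF start in siControl, ranked 33.0 by fold enrichment in siControl and 11.9 in siAATF, a change of −21.1 points, beside −0.197 for AATF. By −log10 q it ranked 55.5 and 42.3. The peak nearest to NOL10 lay at the promoter of ATP6V1C2, a subunit of the proton pump of acidic organelles, and ranked 40.2 in siControl and 22.5 in siAATF. Upstream of DAPK3, the promoter of EEF2, the translation elongation factor, ranked 37.4 and 34.98 by fold enrichment but 86.8 and 86.9 by −log10 q, and that of PIAS4, a SUMO ligase, ranked 76.3 and 75.9 by fold enrichment and 99.3 and 99.5 by −log10 q. These neighbours were picked once their values were known, and no replicate gives the spread of their changes.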
